A study of Mus musculus with 20 samples.

Results

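The tumour necrosis factor (TNF) superfamily of ligands and its receptors was followed through the middle colon of mice with chemically induced colitis and of healthy mice. Members were the probe sets annotated with 1 gene symbol that is Tnf, Lta, Ltb, Ltbr, Fas, Fasl, Cd40, Cd40lg, Cd70, Eda or Edar, or that starts with Tnfsf or Tnfrsf. The rule uses names alone and found 40 probe sets of 40 genes, among 29195 probe sets with values and 21423 genes. A further 2 probe sets, annotated with several symbols, name a family gene (Tnfsf12 with Tnfsf13, and Tnfrsf18 with a neighbour) and were not counted. Of the 40 members, 37 were bright enough to be tested, 13 ligands and 24 receptors. Cd40lg, Cd70 and Tnfsf18 were not.

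All animals were female C57BL/6JOlaHsd mice about 11 weeks old, with 1 Affymetrix array per mouse and 4 mice in each of 5 groups. Healthy mice received saline (animal numbers 2, 4, 6 and 7) or a probiotic mixture of the bacterial strains L930BB and IM386 by stomach tube (4, 5, 6 and 7). Colitis was induced with 3% dextran sulphate sodium (DSS), a sulphated sugar polymer that injures the colonic epithelium, in the drinking water for 5 days. Colitis mice received saline (5, 6, 7 and 10), the probiotic mixture (3, 5, 7 and 8), or cyclosporine A (4, 7, 9 and 10). Cyclosporine A inhibits calcineurin and so the activation of T cells, and was given by mouth at 25 mg/kg daily from day 1 to day 15. The probiotic was given before DSS and together with it. No healthy mice received cyclosporine, and the drug came in a methocel suspension rather than saline, so that drug and vehicle cannot be told apart. DSS colitis is a chemical injury model. Mice lived 5 to a cage, and which mice shared a cage, and the day of sampling, were not known here. Values below are log2 expression, listed in the order of the animal numbers just given.

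TNF family ligands are trimers made as membrane proteins, some of which are shed in soluble form, and each binds 1 or more receptors that cluster on binding. Receptors with a death domain can recruit caspase-8 and kill the cell, while most others recruit TRAF adaptors and activate NF-kB. In the gut, TNF drives inflammation and is the target of antibodies used against inflammatory bowel disease. Lymphotoxin builds lymphoid follicles, TRAIL and Fas ligand kill cells, BAFF keeps B cells alive, and CD30, CD137, OX40 and GITR costimulate T cells.

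The arrays had medians of 6.22 to 6.29 and pairwise correlations of 0.965 to 0.994. Precision is set by there being 4 arrays a group. The tissue was the whole wall of the colon by its markers. The mean of 10 epithelial markers lay between 10.9 and 11.8 and that of 7 smooth muscle markers between 10.9 and 11.7 over all 20 mice. Earlier analysis of these data had set apart 3 arrays, healthy saline mouse 2, colitis saline mouse 6 and colitis probiotic mouse 8. Colitis probiotic mouse 8 had a neutrophil marker mean of 6.44 against 8.83 to 9.42 in the other 3 mice of its group. Its macrophage and monocyte mean was 8.99 against 9.69 to 9.76. Its B cell and follicle, T cell, dendritic cell, fibroblast and endothelial means were the lowest of the group too. Its smooth muscle and epithelial means were the highest, and its plasma cell mean was neither. Colitis saline mouse 6 had the lowest neutrophil (6.27) and macrophage and monocyte (8.09) means of its group. Its B cell and follicle, plasma cell, T cell and dendritic cell means were the lowest there too. Leaving out both mice thus removes those lowest for neutrophil and macrophage markers from their groups. Why the 3 arrays were set apart is not given here. In bulk tissue, fewer cells of a type and less RNA per cell cannot be told apart.

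Promoter sequence was read because many family receptors activate NF-kB and several family genes are known NF-kB targets. Whether any motif has a part in the expression changes was not tested. RefSeq (GRCm38.p6) supplied 35 windows, from 250 bases before to 50 after the gene start, for 31 of the 40 members. Both strands were searched for 5 motifs. The NF-kB consensus was found in 3 of the 35 windows, against 4.51% of 32851 promoters of the same length. A related motif, whose match overlaps that of the consensus, was found in 1 window (Ltb), against 4.59%. The AP-1 site TGANTCA was in 6 windows (Fas, Tnfrsf8, Tnfrsf9, Tnfsf14 and both of Tnfsf13b), against 7.81%. The Tnfsf13b windows overlap and share 1 site, counted in each. The core of the interferon-stimulated response element was in 4 (Tnfrsf14, Tnfrsf17, Tnfrsf1b and Tnfsf13b), against 3.44%. TATAAA was in 6, among them Tnf, Lta and Tnfsf11, against 13.6%. The windows with the NF-kB consensus were those of Ltb, Tnfrsf8 and Tnfrsf9. All 3 genes were higher in colitis with saline and lower under cyclosporine than on saline in colitis. So were Tnf, Tnfrsf1b, Tnfrsf14 and Tnfrsf23, whose windows held no match to that consensus. Of these 7 genes, only Tnf and Tnfrsf8 kept the cyclosporine call with each mouse left out. The colitis call of Tnfrsf9 depended on single mice too. For the windows with a match, the 250 bases before the gene start are shown. They were chosen after those values were seen. They run 5′ to 3′ along the gene's strand with the NF-kB matches in capitals, and lie at chr17:35194257-35194506 (plus strand), chr4:145315165-145315414 (minus) and chr4:150927749-150927998 (plus).

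Ltb: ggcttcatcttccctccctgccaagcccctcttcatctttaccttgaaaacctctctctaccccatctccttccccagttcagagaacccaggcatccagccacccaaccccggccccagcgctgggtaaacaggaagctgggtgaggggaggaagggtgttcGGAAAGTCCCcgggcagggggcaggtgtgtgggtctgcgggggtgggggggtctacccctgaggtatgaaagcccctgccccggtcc
Tnfrsf8: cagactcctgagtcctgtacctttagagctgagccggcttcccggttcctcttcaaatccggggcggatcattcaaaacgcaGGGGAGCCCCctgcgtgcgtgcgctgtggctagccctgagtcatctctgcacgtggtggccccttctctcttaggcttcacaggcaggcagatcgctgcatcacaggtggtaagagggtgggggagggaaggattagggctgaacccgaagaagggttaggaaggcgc
Tnfrsf9: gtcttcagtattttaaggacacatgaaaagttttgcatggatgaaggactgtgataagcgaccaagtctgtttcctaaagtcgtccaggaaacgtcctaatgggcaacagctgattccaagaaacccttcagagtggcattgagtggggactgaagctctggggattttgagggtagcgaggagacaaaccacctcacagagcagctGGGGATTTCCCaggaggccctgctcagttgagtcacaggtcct

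The match begins 87 bases before the start of Ltb and 168 before that of Tnfrsf8. At Tnfrsf9 overlapping matches begin 43 and 42 bases before the start, and the AP-1 site TGANTCA follows 15 bases before it. RefSeq gives Tnfrsf9 another start, and the window there held neither motif. A match describes the letters in the window and is no evidence of binding.

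In colitis on saline, family members of nearly every role were higher than in healthy mice. Against healthy saline mice, 18 of 37 tested members were higher and 1 lower, which is 51.4% of the members against 26.1% of all 16739 genes tested (limma, Benjamini-Hochberg adjusted p under 0.05). Over all genes 11.7% were higher and 14.4% lower. The median change was 0.41 for the members and -0.03 for all genes. Of 13 ligands 7 were higher and 0 lower, and of 24 receptors 11 were higher and 1 lower. The 4 mice of each group did not overlap for 17 members, against 24.6% of all genes. Largest were the changes of Tnfrsf8 (2.16 ± 0.19, 4.46-fold), Tnf (1.51 ± 0.24, 2.86-fold), Ltb (1.42 ± 0.32, 2.68-fold), Tnfrsf23 (1.21 ± 0.28) and Tnfrsf1b (1.13 ± 0.22). The calls of Tnfsf15, Tnfsf10, Tnfrsf9, Tnfsf8 and Tnfrsf26 depended on single mice. Tnfsf15 was lost without healthy saline mouse 2, 4 or 6 or colitis saline mouse 5, 7 or 10, and Tnfsf10 without healthy mouse 2 or 6 or colitis mouse 10. Tnfrsf9 was lost without healthy mouse 4 or 7 or colitis mouse 5 or 7, Tnfsf8 without healthy mouse 4 or 7 or colitis mouse 5, and Tnfrsf26 without healthy mouse 6 or colitis mouse 5. Changes are given as log2 difference ± standard error of the limma fit, n = 4 mice per group.

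**Figure D1:**
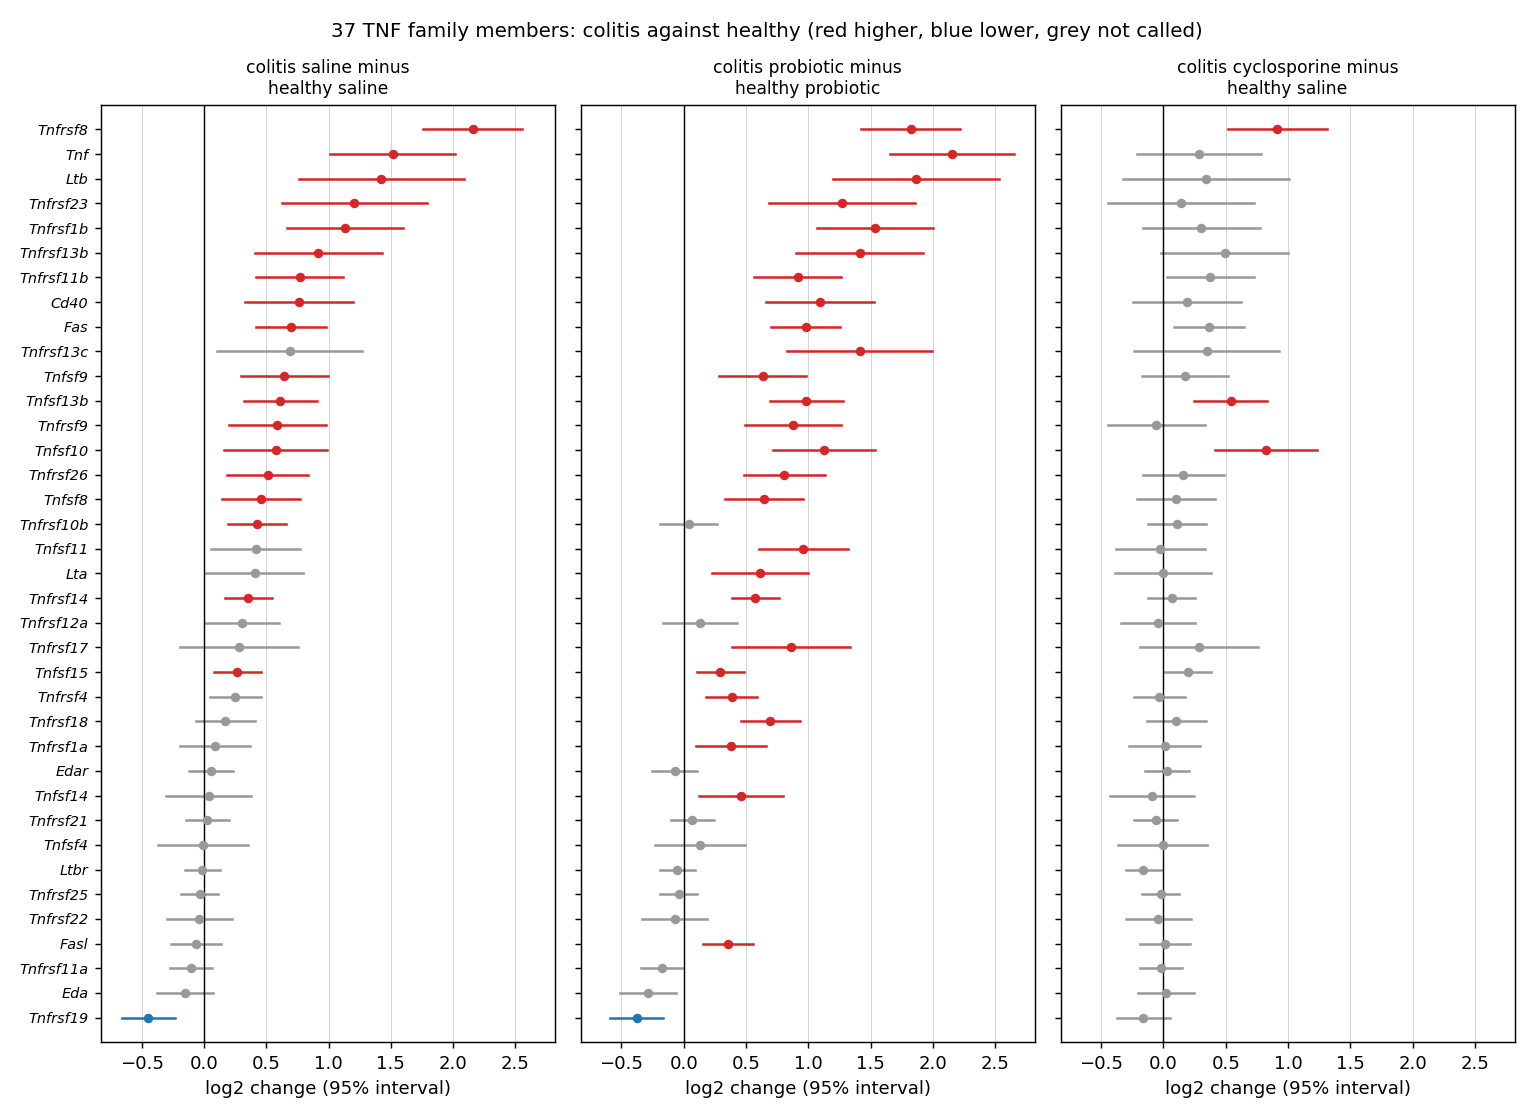
The log2 change of each of 37 tested members is plotted with its 95% interval for colitis against healthy mice, on saline (left), on probiotic (middle) and for cyclosporine-treated colitis against healthy saline (right), on a common axis. Red marks members called higher, blue lower and grey not called. The left panel has 18 red and 1 blue, the middle 26 and 1, and the right 3 red (Tnfrsf8, Tnfsf10 and Tnfsf13b).

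With probiotic in both arms, colitis showed more family calls. Against healthy probiotic mice, 26 members were higher and 1 lower, 73% of the members beside 29.7% of all genes (13.6% higher, 16.1% lower). The median was 0.64, with no overlap for 21 members against 31.1% of genes. Tnf changed by 2.15 ± 0.24, Ltb by 1.87 ± 0.32 and Tnfrsf8 by 1.82 ± 0.19. This comparison shares no arrays with the saline one, and whether they differ was tested by the interaction given further on.

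Inflammatory ligands were led by Tnf, the founding cytokine of the family. Healthy saline mice read 7.13, 6.84, 6.81 and 7.04 and healthy probiotic mice 6.97, 6.50, 7.25 and 6.57. Colitis saline mice read 8.23, 8.04, 9.09 and 8.51, colitis probiotic mice 9.07, 9.33, 9.32 and 8.18 and cyclosporine mice 7.32, 6.96, 7.21 and 7.47. All 8 mice with colitis on saline or probiotic lay above all 8 healthy mice, and the 4 cyclosporine mice lay below those 8 colitis mice. Tnf was higher in colitis saline than in healthy saline by 1.51 ± 0.24 (limma adjusted p = 0.000175). Under cyclosporine it was lower than in colitis saline by 1.23 ± 0.24 (adjusted p = 0.00248), and its difference from healthy saline, 0.28 ± 0.24, did not pass (adjusted p = 0.493). Probiotic in colitis gave a difference of 0.51 ± 0.24 (adjusted p = 0.270), with mouse 8 at 8.18 among the saline values and the other 3 probiotic mice at 9.07 to 9.33.

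Ltb, the membrane chain of lymphotoxin that holds it at the cell surface, had the pattern of Tnf with more spread. Levels were 7.16, 6.88, 6.78 and 6.49 in healthy saline and 7.24, 6.78, 6.58 and 6.48 in healthy probiotic mice. They were 9.12, 7.63, 8.15 and 8.11 in colitis saline and 8.58, 9.18, 8.55 and 8.24 in colitis probiotic mice, and were 7.16, 6.75, 6.58 and 8.19 under cyclosporine. No colitis mouse on saline or probiotic overlapped the healthy mice, while cyclosporine mouse 10, at 8.19, lay within the colitis saline range. The call was 1.42 ± 0.32 against healthy saline (adjusted p = 0.00278), and the fall under cyclosporine was 1.08 ± 0.32 (adjusted p = 0.0304). That fall lost its call without any of 5 single mice, cyclosporine mice 4, 7 or 9 and colitis saline mice 5 or 7 (adjusted p up to 0.103). The call was lost too with the compared groups fitted alone and with the animal number as a replicate block. Mouse 10 also had the highest mean of B cell and follicle markers in its group, 8.95 against 6.97 to 7.62 in the other 3. Colitis saline mouse 5, with the highest Ltb of its group, had the highest such mean there, 9.69. The part of B cell abundance in Ltb was not tested.

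Lta, the soluble lymphotoxin that pairs with Ltb, moved less. It read 6.66, 5.93, 6.03 and 5.96 in colitis saline mice against 5.99, 5.58, 5.68 and 5.70 in healthy saline mice, with mouse 5 alone at 6.66 and the others overlapping the healthy range or close to it. The difference of 0.41 ± 0.19 did not pass (adjusted p = 0.115). On probiotic the colitis mice were tight, 6.17, 6.12, 6.14 and 6.19, against 5.60, 5.42, 5.56 and 5.58 in healthy mice, and the difference of 0.61 ± 0.19 passed (adjusted p = 0.0168). Ltb, Tnf and Lta are neighbours on chromosome 17 with 0 protein-coding genes between them in RefSeq. Tnfsf15 (TL1A), a ligand that costimulates T cells and innate lymphoid cells, rose by 0.27 ± 0.09 in colitis saline (adjusted p = 0.0346), from 6.53, 6.65, 6.74 and 6.87 to 6.93, 6.92, 6.97 and 7.04. The highest healthy and the lowest colitis mouse were close but did not overlap. Tnfsf14 (LIGHT) was close to the filter level of 5.30, the 25th percentile of values, and exceeded it on 11 of 20 arrays. It was called only in colitis against healthy on probiotic, by 0.46 ± 0.16 (adjusted p = 0.0388), and not without healthy probiotic mouse 4, 5 or 6 or colitis probiotic mouse 3, 5 or 7.

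**Figure D2:**
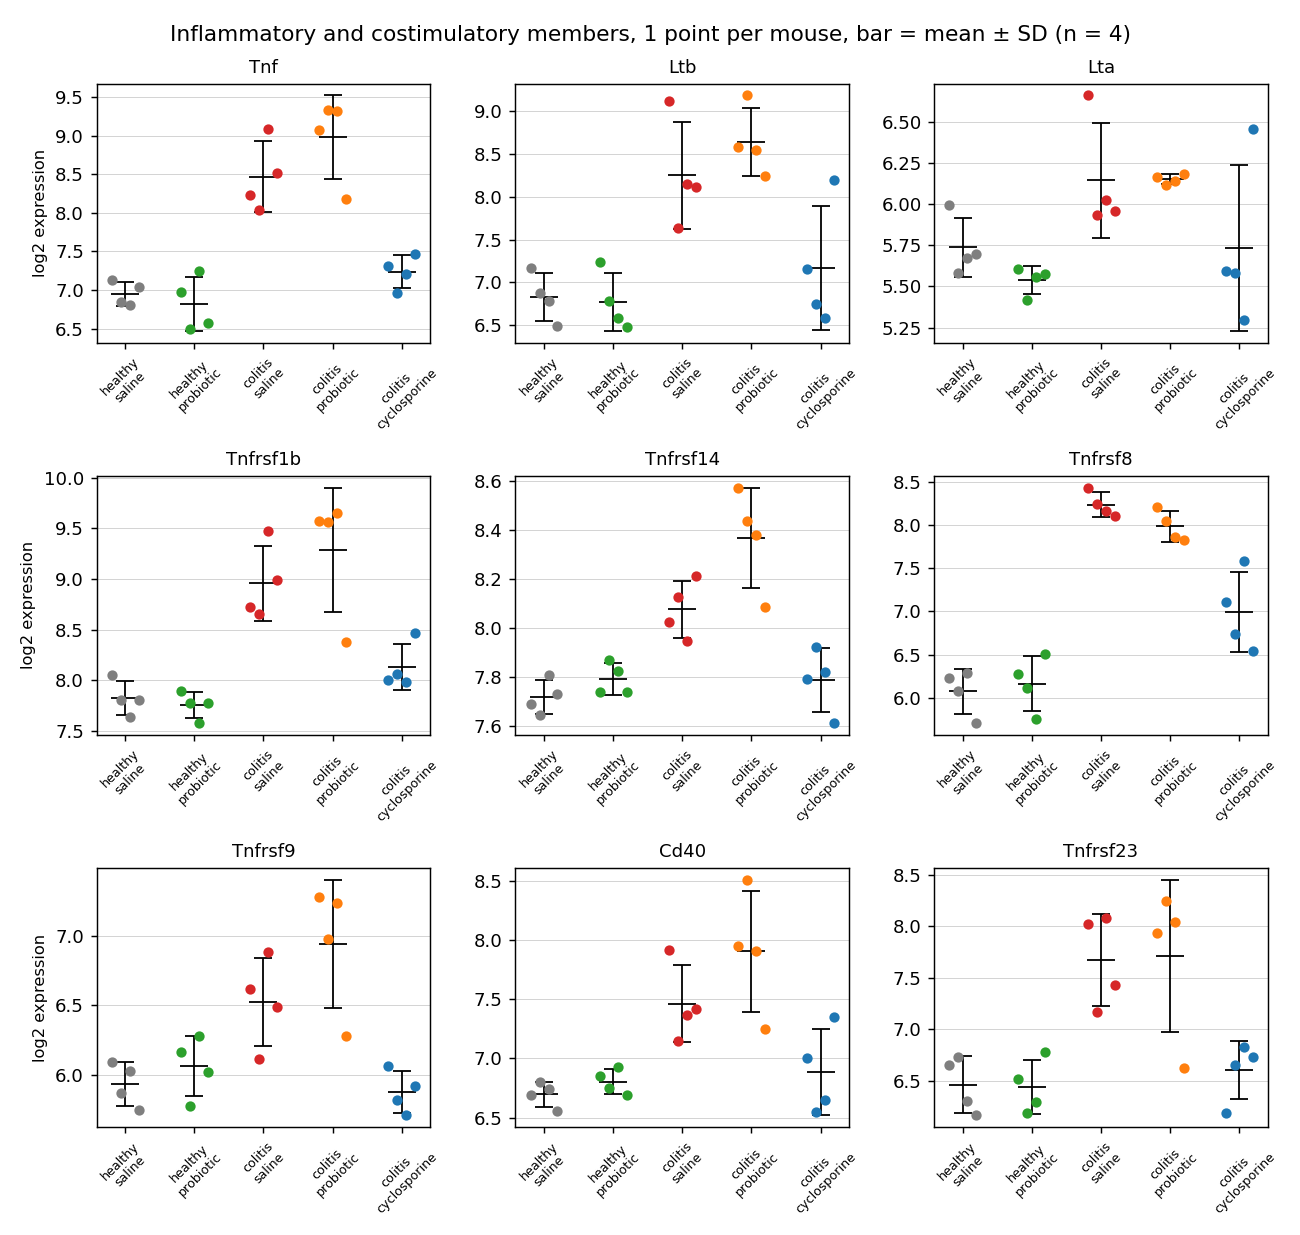
Log2 expression of 9 inflammatory and costimulatory members is shown with 1 point per mouse and the mean ± SD of each group of 4 as bars. Tnf and Tnfrsf1b separate colitis on saline or probiotic from healthy mice, and cyclosporine mice lie below all colitis saline mice for both. Probiotic mouse 8 is below the other probiotic mice, and for Tnfrsf1b also below cyclosporine mouse 10.

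Among inflammatory receptors, the TNF receptor Tnfrsf1b, found mainly on immune cells, rose and the widely expressed death-domain receptor Tnfrsf1a did not pass in colitis on saline. Tnfrsf1b read 8.05, 7.81, 7.64 and 7.81 in healthy saline and 8.73, 8.65, 9.47 and 8.99 in colitis saline mice. It read 9.58, 9.56, 9.65 and 8.38 in colitis probiotic and 8.01, 8.07, 7.99 and 8.47 in cyclosporine mice. Colitis saline exceeded healthy saline by 1.13 ± 0.22 with no overlap (adjusted p = 0.00106), and cyclosporine lay below colitis saline by 0.83 ± 0.22 with no overlap (adjusted p = 0.0194). The cyclosporine call was lost without colitis saline mouse 7 or cyclosporine mouse 4 or 7 (adjusted p up to 0.0735). Colitis saline mouse 7, highest for Tnf and Tnfrsf1b, also had the highest neutrophil mean of its group, 9.74 against 6.27 to 7.51. Its macrophage and monocyte mean was the highest there too, 9.18 against 8.09 to 8.67. The part of either cell type in these values was not tested.

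Tnfrsf1a read 9.08, 8.95, 8.92 and 8.82 in healthy saline and 9.08, 8.67, 9.30 and 9.09 in colitis saline mice, a difference of 0.09 ± 0.13 (adjusted p = 0.681, 95% interval -0.19 to 0.37). It was called on probiotic, 0.38 ± 0.13 against healthy mice (adjusted p = 0.0386). That call was lost when any mouse but colitis probiotic mouse 8 was left out (adjusted p up to 0.128). Tnfrsf14 (HVEM), the receptor of LIGHT, rose by 0.36 ± 0.09 in colitis saline, from 7.69, 7.65, 7.81 and 7.73 to 8.02, 8.13, 7.95 and 8.21. In colitis probiotic mice it read 8.57, 8.44, 8.38 and 8.09 and in cyclosporine mice 7.79, 7.92, 7.82 and 7.61. The cyclosporine mice lay within or near the healthy range and below all colitis saline mice, lower by 0.29 ± 0.09 (adjusted p = 0.0400). This call was lost with no filter on dim genes and without colitis saline mouse 5, 6 or 10 or cyclosporine mouse 4, 9 or 10 (adjusted p up to 0.112). It was lost too with the compared groups fitted alone and with the animal number as a replicate block.

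The lymphotoxin receptor Ltbr, expressed by stromal and epithelial cells, gave no call. Its colitis saline minus healthy saline difference was -0.01 ± 0.07 with a 95% interval of -0.15 to 0.13. The cyclosporine mice read 8.82, 8.91, 8.93 and 8.83, below all 4 colitis saline mice (8.99, 9.08, 9.02 and 8.99), a difference of -0.15 ± 0.07 that did not pass (adjusted p = 0.154). Tnfrsf12a (Fn14), an injury-induced receptor of epithelium, differed by 0.30 ± 0.14 in colitis saline (adjusted p = 0.125), and Tnfrsf25, the receptor of TL1A, by -0.04 ± 0.07 (adjusted p = 0.766). In no comparison was Tnfrsf12a, Tnfrsf25 or Ltbr called.

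Death receptors and their ligands split. Fas, the receptor that triggers apoptosis on binding Fas ligand, read 7.74, 7.74, 7.81 and 7.79 in healthy saline and 8.49, 8.50, 8.46 and 8.43 in colitis saline mice. These were among the tightest groups, with no overlap and a rise of 0.70 ± 0.13 (adjusted p = 0.000872). Colitis probiotic mice read 8.96, 8.93, 8.91 and 8.29 and cyclosporine mice 8.22, 7.995, 7.97 and 8.37. Each cyclosporine mouse lay below each colitis saline mouse and above each healthy saline mouse, but neither difference passed (-0.33 ± 0.13, adjusted p = 0.112, and 0.37 ± 0.13, adjusted p = 0.103). Fasl was near the filter level and read 5.38, 5.51, 5.46 and 5.25 in healthy saline, 5.32, 5.41, 5.36 and 5.23 in colitis saline and 5.72, 5.97, 5.64 and 5.44 in colitis probiotic mice. It was higher on probiotic than on saline in colitis by 0.36 ± 0.10 (adjusted p = 0.0476), with no overlap. The saline difference between colitis and healthy mice was -0.07 ± 0.10.

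Tnfsf10 (TRAIL), an interferon-inducible death ligand, was the member with the largest probiotic change in colitis. It read 6.85, 7.25, 6.73 and 7.19 in healthy saline and 7.31, 7.36, 7.42 and 8.23 in colitis saline mice, where mouse 10 stood far above the other 3. Probiotic colitis mice read 8.65, 8.51, 8.45 and 7.99 and cyclosporine mice 8.07, 7.93, 7.38 and 7.94. It was higher in colitis by 0.57 ± 0.20 on saline (adjusted p = 0.0365), and on probiotic it stood higher by a further 0.82 ± 0.20 (adjusted p = 0.0327), saline mouse 10 overlapping the probiotic group. Cyclosporine mice remained above healthy saline by 0.83 ± 0.20 (adjusted p = 0.0213), and their difference from colitis saline was 0.25 ± 0.20 (adjusted p = 0.438). Tnfrsf10b, the mouse TRAIL death receptor, rose by 0.43 ± 0.11 in colitis saline (adjusted p = 0.00771), from 7.37, 7.25, 7.12 and 7.11 to 7.49, 7.93, 7.53 and 7.60. On probiotic the same contrast gave 0.04 ± 0.11 (adjusted p = 0.828), the healthy probiotic mice reading 7.70, 7.29, 7.23 and 7.66. The test of that difference between probiotic effects gave -0.39 ± 0.16 and did not pass (adjusted p = 0.524).

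Tnfrsf23, a decoy receptor for TRAIL without a working death domain, read 6.65, 6.73, 6.30 and 6.17 in healthy saline and 8.02, 7.16, 8.08 and 7.43 in colitis saline mice. Colitis probiotic mice read 7.94, 8.25, 8.04 and 6.62, and cyclosporine mice 6.19, 6.66, 6.83 and 6.73. Mouse 8 of the probiotic group was at the healthy level. It was higher in colitis by 1.21 ± 0.28 (adjusted p = 0.00354), and under cyclosporine fell by 1.07 ± 0.28 with no overlap (adjusted p = 0.0163). The latter call was lost without colitis saline mouse 7 or cyclosporine mouse 4 (adjusted p up to 0.0564). Tnfrsf26, its near relative, rose by 0.51 ± 0.15 (adjusted p = 0.0201), with colitis saline mouse 6 at 5.39 inside the healthy range. Tnfrsf22, the other decoy, differed by -0.04 ± 0.13 and Tnfrsf21 (DR6) by 0.03 ± 0.08 in the same contrast, and neither was called anywhere. Tnfrsf26, Tnfrsf22 and Tnfrsf23 lie side by side on chromosome 7, and close copies may share probe signal, so their separate levels are uncertain.

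Costimulatory receptors held the largest member change of colitis on saline. Tnfrsf8 (CD30), a receptor of activated T and B cells, read 6.23, 6.08, 6.29 and 5.71 in healthy saline and 6.27, 6.11, 5.76 and 6.51 in healthy probiotic mice. It read 8.43, 8.24, 8.17 and 8.10 in colitis saline and 8.21, 8.05, 7.86 and 7.82 in colitis probiotic mice. Under cyclosporine it read 7.11, 6.74, 7.58 and 6.54, between the healthy saline and the colitis saline mice with no overlap on either side. The rise in colitis saline was 2.16 ± 0.19 (adjusted p = 5.22e-07). Cyclosporine lay 1.24 ± 0.19 below colitis saline on the log2 scale (adjusted p = 0.000395) and 0.91 ± 0.19 above healthy saline (adjusted p = 0.0113). Probiotic in colitis gave -0.25 ± 0.19 (adjusted p = 0.534, 95% interval -0.64 to 0.15). Tnfsf8, the ligand of CD30, rose by 0.46 ± 0.15 (adjusted p = 0.0289), with mouse 5 at 6.51 and the other 3 colitis saline mice at 5.47 to 5.71.

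Tnfrsf9 (CD137), induced on activated T and NK cells, read 6.09, 5.87, 6.03 and 5.74 in healthy saline and 6.61, 6.11, 6.88 and 6.49 in colitis saline mice. Colitis probiotic mice read 7.28, 6.97, 7.23 and 6.28 and cyclosporine mice 6.07, 5.82, 5.71 and 5.92. The cyclosporine mice lay at about the healthy range and below every colitis saline mouse. The rise was 0.59 ± 0.18 (adjusted p = 0.0234) and the cyclosporine difference -0.65 ± 0.18 (adjusted p = 0.0261), the latter lost without colitis saline mouse 5 or 7 or cyclosporine mouse 7 or 9 (adjusted p up to 0.0921). Its ligand Tnfsf9 rose by 0.65 ± 0.17 (adjusted p = 0.00751), with colitis saline mouse 7 at 6.76 and the others at 5.67 to 6.07, and its cyclosporine difference of -0.47 ± 0.17 did not pass (adjusted p = 0.0667).

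Cd40, which B cells, dendritic cells and macrophages use to receive T cell help, read 6.69, 6.80, 6.74 and 6.56 in healthy saline, 7.92, 7.15, 7.37 and 7.42 in colitis saline and 7.002, 6.55, 6.65 and 7.35 in cyclosporine mice. It rose by 0.77 ± 0.21 in colitis saline (adjusted p = 0.0105) with no overlap. Cyclosporine mice overlapped both, at -0.58 ± 0.21 from colitis saline (adjusted p = 0.0733). Tnfrsf18 (GITR), abundant on regulatory T cells, read 6.93, 6.36, 6.60 and 6.73 in colitis saline and 7.13, 7.13, 7.17 and 6.91 in colitis probiotic mice. The probiotic difference was 0.43 ± 0.11 (adjusted p = 0.0483), with saline mouse 5 overlapping probiotic mouse 8. Its neighbour on chromosome 4, Tnfrsf4 (OX40), differed by 0.15 ± 0.10 in that comparison (adjusted p = 0.461), and was called in colitis against healthy on probiotic (0.38 ± 0.10, adjusted p = 0.00512). Tnfsf4, the OX40 ligand, exceeded the filter level on 5 of 20 arrays, and its 5 group means were below that level. No call was made for it.

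Of the 4 tested B cell survival genes, 2 were called in colitis on saline, Tnfsf13b and Tnfrsf13b, and all 4 in colitis on probiotic against healthy probiotic mice, beside 26.1% and 29.7% of all genes. Tnfsf13b (BAFF), made by myeloid and stromal cells, read 7.27, 7.79, 7.80 and 7.50 in healthy saline and 7.95, 8.01, 7.93 and 7.95 in healthy probiotic mice. It read 8.43, 7.71, 8.52 and 8.15 in colitis saline, 9.03, 9.06, 8.98 and 8.71 in colitis probiotic and 8.13, 8.19, 8.04 and 8.17 in cyclosporine mice. All 4 probiotic colitis mice exceeded all other mice of the series. The rise with colitis on saline was 0.61 ± 0.14 (adjusted p = 0.00334), with mouse 6 in the healthy range. Probiotic mice stood higher than saline mice in colitis by 0.74 ± 0.14 (adjusted p = 0.0113). Cyclosporine mice remained 0.54 ± 0.14 above healthy saline (adjusted p = 0.0315), with -0.07 ± 0.14 between them and colitis saline (adjusted p = 0.793). In healthy mice, the probiotic difference of 0.37 ± 0.14 had no overlap but did not pass (adjusted p = 0.428).

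Of the BAFF receptors, Tnfrsf13b (TACI) read 5.72, 5.02, 5.86 and 5.49 in healthy saline, 6.80, 5.80, 6.67 and 6.50 in colitis saline and 6.87, 7.26, 7.17 and 7.54 in colitis probiotic mice. It rose with colitis by 0.92 ± 0.24 (adjusted p = 0.00883), saline mouse 6 excepted. Its probiotic difference of 0.77 ± 0.24 had no overlap and did not pass (adjusted p = 0.0933). Tnfrsf13c, the BAFF receptor of mature B cells, read 8.87, 7.51, 8.14 and 8.09 in colitis saline, 8.73, 8.59, 8.72 and 8.74 in colitis probiotic and 7.77, 7.64, 7.04 and 8.80 in cyclosporine mice, and its saline rise of 0.69 ± 0.28 did not pass (adjusted p = 0.0754). Tnfrsf17 (BCMA), a receptor of plasma cells, read 6.64, 5.48, 6.27 and 6.45 in colitis saline and 6.44, 6.82, 7.06 and 7.57 in colitis probiotic mice, a difference of 0.76 ± 0.23 that did not pass (adjusted p = 0.0737). Mouse 8 of the probiotic group, low for Tnf and Tnfrsf1b, was the highest of all 20 mice for Tnfrsf17 and Tnfrsf13b. On probiotic, all 3 receptors were higher in colitis than in healthy mice, by 1.41 ± 0.24, 1.41 ± 0.28 and 0.86 ± 0.23 for Tnfrsf13b, Tnfrsf13c and Tnfrsf17.

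**Figure D3:**
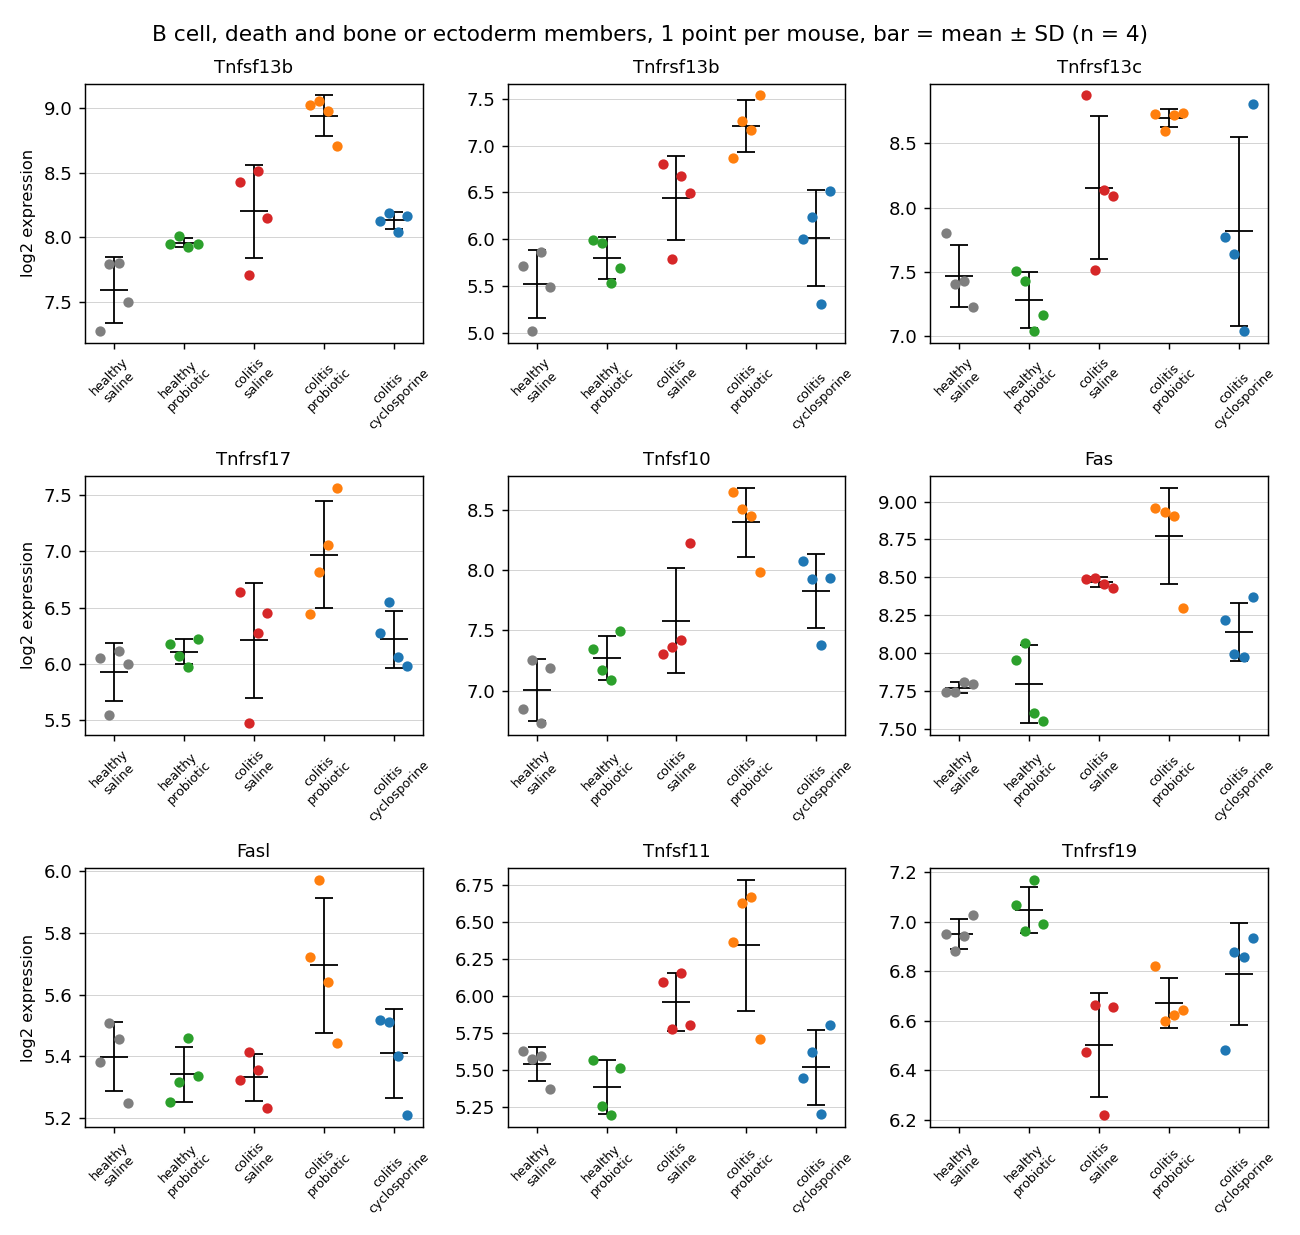
Log2 expression of 9 members for B cell survival, cell death, bone and ectoderm is shown with 1 point per mouse and the mean ± SD of each group of 4 as bars. Tnfsf13b is highest in the 4 colitis probiotic mice, Fas is tight in colitis saline (8.43 to 8.50), and Tnfrsf19 is lower in colitis on saline and probiotic than in healthy mice.

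Bone and ectoderm members moved in both directions. Tnfrsf11b (osteoprotegerin), the soluble decoy of RANKL, read 6.96, 6.85, 6.63 and 6.59 in healthy saline and 7.64, 7.77, 7.26 and 7.43 in colitis saline mice, and rose by 0.77 ± 0.17 with no overlap (adjusted p = 0.00222). Tnfsf11 (RANKL), which in the gut supports M cell formation, read 5.63, 5.58, 5.59 and 5.37 against 6.09, 5.77, 6.16 and 5.80. These did not overlap, but the difference of 0.41 ± 0.17 did not pass (adjusted p = 0.0822). On probiotic, colitis exceeded healthy by 0.96 ± 0.17 (adjusted p = 0.000287). Tnfrsf11a (RANK), the signalling receptor, was not called in any comparison.

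Tnfrsf19 (TROY), a receptor linked to Wnt signalling and intestinal stem cells, was the member called lower in colitis. It read 6.95, 6.88, 6.94 and 7.03 in healthy saline and 6.47, 6.67, 6.22 and 6.66 in colitis saline mice, with no overlap, and fell by 0.45 ± 0.10 (adjusted p = 0.00313). On probiotic it fell by 0.38 ± 0.10 (adjusted p = 0.00809), from 7.07, 6.96, 7.17 and 6.99 to 6.82, 6.60, 6.62 and 6.65. Cyclosporine mice read 6.48, 6.88, 6.86 and 6.93, with 3 of them at 6.86 to 6.93 above every colitis saline mouse and mouse 4 within that group. Their difference from colitis saline was 0.28 ± 0.10 and did not pass (adjusted p = 0.0698). Eda and Edar, the ectodysplasin ligand and receptor of skin appendages, gave no call, with differences in colitis saline of -0.15 ± 0.11 and 0.05 ± 0.09.

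Colitis mice on cyclosporine had lower levels of some members than colitis mice on saline. Against colitis saline, 7 of 37 members were lower and 0 higher, 18.9% of the members beside 13.2% of all genes (5.58% lower, 7.58% higher). They were 2 ligands, Tnf and Ltb, and 5 receptors, Tnfrsf8, Tnfrsf23, Tnfrsf1b, Tnfrsf9 and Tnfrsf14. All 7 were among the 18 called higher in colitis saline, but both comparisons share the colitis saline arrays. The median change was -0.29 for members and -0.01 for all genes, and groups did not overlap for 9 members against 15% of genes. The calls of Tnf and Tnfrsf8 held in every alternative and with each mouse left out. Leaving out single mice gave 3 to 12 calls, 3 without colitis saline mouse 7, 4 without colitis saline mouse 5 or cyclosporine mouse 4, 7 or 9, and 12 without colitis saline mouse 6. Without the 3 arrays set apart there were 14.

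**Figure D4:**
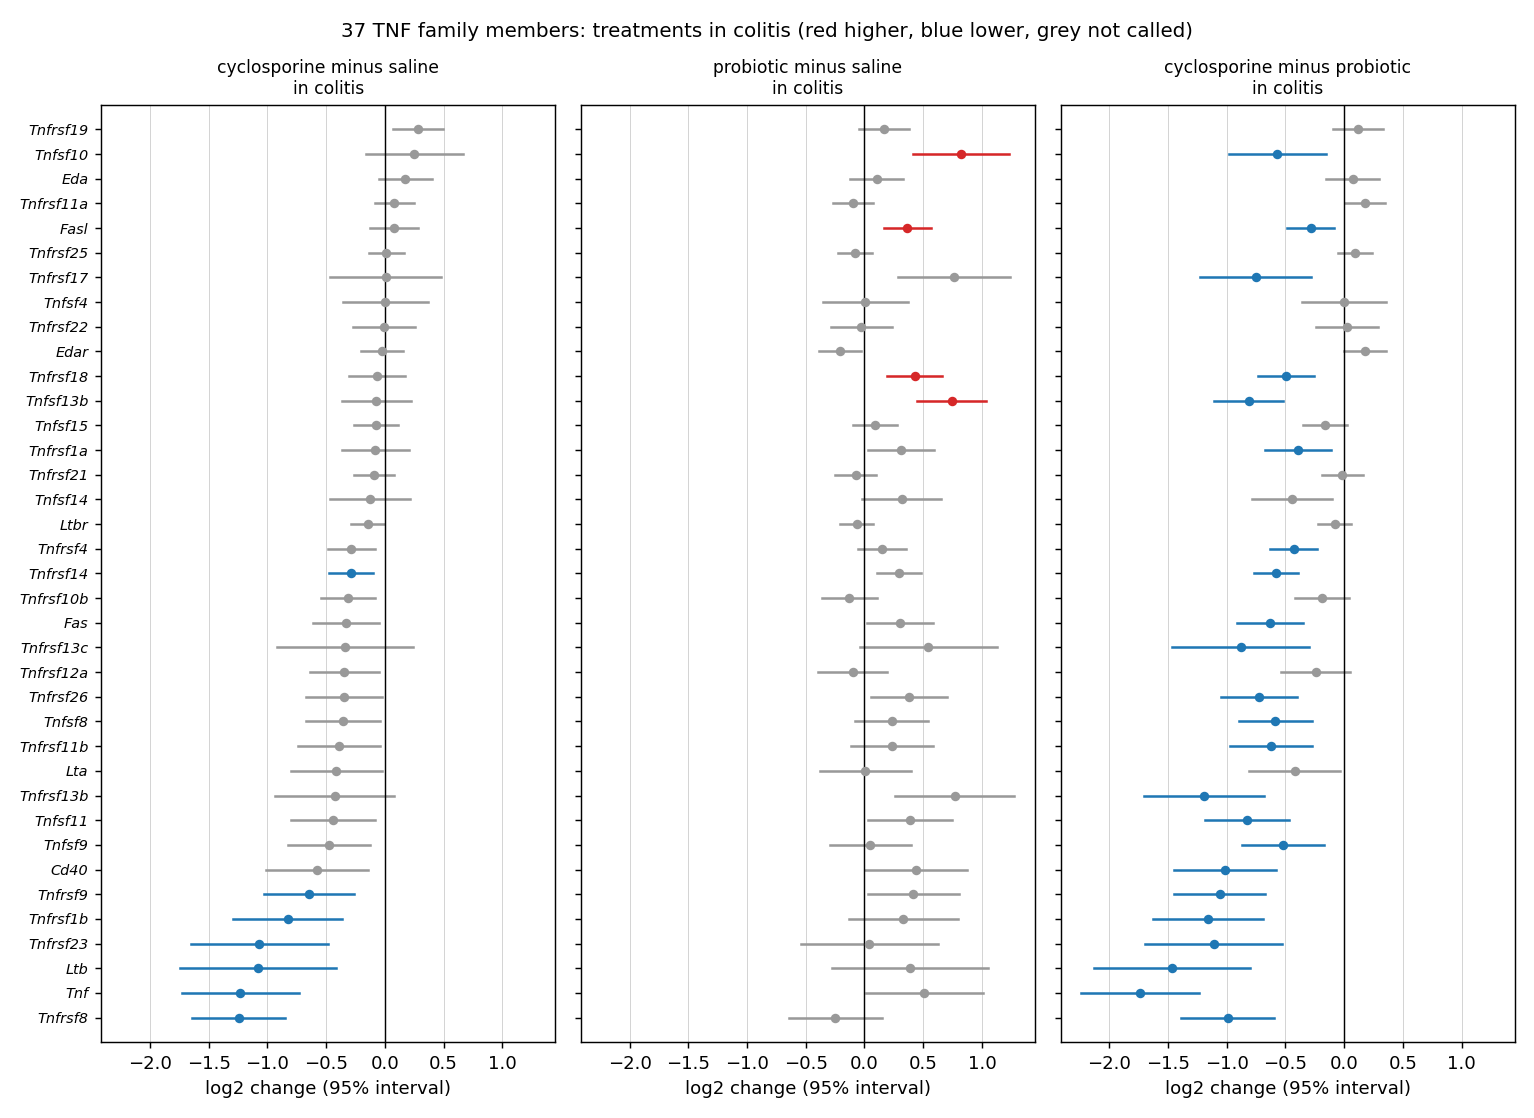
The log2 change of each of 37 tested members is plotted with its 95% interval for cyclosporine minus saline (left), probiotic minus saline (middle) and cyclosporine minus probiotic (right), all in colitis and on a common axis. Red marks higher, blue lower and grey not called. The left panel has 7 blue, the middle 4 red (Tnfsf10, Tnfsf13b, Tnfrsf18 and Fasl) and the right 23 blue.

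Against healthy saline, cyclosporine mice had 3 members higher, 8.11% beside 6.02% of all genes (2.64% higher, 3.38% lower), and 0 lower. Those were Tnfrsf8, Tnfsf10 and Tnfsf13b. Groups did not overlap for 5 of 37 members, near the 14.7% of all genes. A p above the threshold for the other members does not show that they had returned to the healthy level. The 95% interval for Tnf was -0.22 to 0.78 and for Ltb -0.32 to 1.01. Leaving out single mice gave 1 to 3 calls, with Tnfrsf8 alone without healthy saline mouse 2 or cyclosporine mouse 4 or 10.

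Probiotic treatment in colitis went with 4 members higher than in colitis saline and 0 lower, 10.8% of the members beside 2.8% of all genes (2.13% higher). They were Tnfsf10, Tnfsf13b, Tnfrsf18 and Fasl, 3 ligands and 1 receptor. The median was 0.23 for members and -0.02 for all genes. Groups did not overlap for 3 of 37 members, near the 7.9% of all genes. None of the 4 held in every alternative, a fit of the 2 groups alone gave 0, and leaving out single mice gave 0 (without probiotic mouse 5) to 13 (without probiotic mouse 8). It gave 8 without colitis saline mouse 5, 2 without saline mouse 10 (Tnfsf10 and Tnfsf13b), and 1, Tnfsf13b, without saline mouse 6 or 7 or probiotic mouse 3 or 7. Without probiotic mouse 8, Tnf, Tnfrsf1a, Tnfrsf1b, Tnfrsf9, Tnfrsf11b, Tnfrsf14, Cd40, Fas and Tnfsf11 were called in addition.

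Colitis mice on cyclosporine had more member calls against those on probiotic than against those on saline. Of 37 members 23 were lower on cyclosporine and 0 higher, 62.2% beside 23.2% of all genes (12% lower), and groups did not overlap for 13 against 21% of genes. Largest were Tnf (-1.74 ± 0.24), Ltb (-1.47 ± 0.32), Tnfrsf13b (-1.19 ± 0.24), Tnfrsf1b (-1.16 ± 0.22), Tnfrsf23 (-1.11 ± 0.28), Tnfrsf9 (-1.06 ± 0.18) and Cd40 (-1.02 ± 0.21). Fas (-0.63 ± 0.13), Tnfsf13b (-0.81 ± 0.14), Tnfrsf11b (-0.62 ± 0.17) and Tnfsf8 (-0.59 ± 0.15) were among the others. All of these named calls held with each mouse left out, and the count then ran from 17 (without probiotic mouse 7) to 23. The comparison sets 2 treatments given by different schedules side by side.

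In healthy mice the probiotic gave no call. Limma called 0 of 37 members and 0% of all genes, and 3 members (Tnfsf13b, Tnfrsf10b and Eda) had an unadjusted p under 0.05, with 0.428 as the lowest after adjustment. Groups did not overlap for 2 of 37 members, below the 7.07% of all genes. The interaction, whether the probiotic change in colitis differs from that in healthy mice, likewise called 0 of 37 and 0% of genes. It had 4 members under an unadjusted p of 0.05, Tnfrsf18 (0.52 ± 0.16), Fasl (0.42 ± 0.14), Tnfsf11 (0.54 ± 0.24) and Tnfrsf10b (-0.39 ± 0.16), and the lowest adjusted p was 0.444. So it was not shown that the 26 and 18 members higher in colitis on probiotic and on saline differ.

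The 3 dim members exceeded the filter level of 5.30 on 0 of 20 arrays. The CD40 ligand gene Cd40lg ran from 3.93 to 5.13 over all 20 mice, the GITR ligand gene Tnfsf18 from 3.24 to 4.17 and the CD27 ligand gene Cd70 from 3.90 to 4.45. No value was above that level, and no change is given for them.

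Genes that act with the family were read as 1 list. Of 55 adaptors, NF-kB genes, death effectors, sheddases and receptors under other symbols, 49 were tested. In colitis saline 23 were higher and 3 lower, with a median of 0.24, beside 11.7% of all genes higher, 14.4% lower and a median of -0.03. Rel, the NF-kB subunit of lymphocytes, changed by 1.52 ± 0.23, the atypical inhibitor Nfkbiz by 0.96 ± 0.17 and Nfkbie by 0.91 ± 0.19, and 5 of 9 NF-kB genes were higher (11.7% of all genes). The ligand sheddases Adam10 (0.53 ± 0.06) and Adam17 (0.39 ± 0.08) rose, as did the iRhom gene Rhbdf2 (0.42 ± 0.10), needed for ADAM17 to reach the surface. Of 7 death genes 3 were higher, the necroptosis genes Ripk3 (0.78 ± 0.20) and Mlkl (0.52 ± 0.13) and Cflar, which restrains caspase-8 (0.24 ± 0.08). Of 17 adaptors and ubiquitin genes, 8 were higher, such as the deubiquitinase Cyld (0.51 ± 0.08), and 2 lower, the TNF receptor adaptor Tradd (-0.42 ± 0.09) and Tnip1 (-0.62 ± 0.09), a partner of the NF-kB inhibitor A20. Cd27, a T and B cell family receptor, changed by 0.67 ± 0.24, and Eda2r, a receptor of ectodysplasin, by -0.33 ± 0.08.

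Under cyclosporine 12 of the 49 were lower than in colitis saline and 2 higher, with a median of -0.17, beside 5.58% of all genes lower, 7.58% higher and a median of -0.01. Of 9 NF-kB genes 4 were lower, Rel (-0.83 ± 0.23), Nfkbie (-0.69 ± 0.19), Nfkb2 (-0.60 ± 0.14) and Nfkbiz (-0.54 ± 0.17). Lower too were Ripk3 (-0.68 ± 0.20), the A20 gene Tnfaip3 (-0.47 ± 0.12) and Adam10 (-0.31 ± 0.06), while Tnip1 (0.47 ± 0.09) and Eda2r (0.30 ± 0.08) were higher. Probiotic against saline in colitis called 0 of 49, with a median of 0.10, beside 2.8% of all genes called. Cyclosporine against probiotic had 27 lower and 0 higher, beside 12% of all genes lower. Against healthy saline 2 were higher (Cyld and Adam10) and 1 lower (Rhbdf1), which is near the 6.02% of all genes called.

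Marker lists of cell types that make or respond to these genes were read alongside. In colitis saline against healthy saline, 9 of 9 tested B cell and follicle markers were higher (median 1.54), beside 11.7% of all genes. Higher too were 6 of 8 T cell, 7 of 10 macrophage and monocyte, 6 of 8 neutrophil and 3 of 6 plasma cell markers. So were 3 of 6 dendritic cell, 3 of 6 fibroblast and 1 of 8 endothelial markers. Lower were 6 of 7 smooth muscle and 4 of 10 epithelial markers, beside 14.4% of all genes, and 1 epithelial marker was higher. Among the epithelial markers the water channel gene Aqp8 (-1.56 ± 0.20) and the carbonic anhydrase gene Car1 (-1.26 ± 0.12) fell. The mean of the B cell and follicle markers was 6.69 to 7.59 in healthy saline and 8.05 to 9.69 in colitis saline mice. Cr2, a B cell and follicle gene, changed by 2.54 ± 0.45. The neutrophil mean was 5.69 to 5.92 in healthy saline, 6.27 to 9.74 in colitis saline and 5.98 to 6.10 in cyclosporine mice. Under cyclosporine against colitis saline, 2 of 9 B cell and follicle markers were lower, beside 5.58% of all genes. They were Cxcl13 and Cr2, and the other tested genes of that list, such as Cd79a, Cd79b and Ms4a1, were not called. Lower too were 2 of 8 neutrophil, 1 of 8 T cell and 1 of 10 macrophage markers. So were 1 of 6 plasma cell and 1 of 6 fibroblast markers. Higher were 5 of 7 smooth muscle, 3 of 10 epithelial and 1 of 8 endothelial markers, beside 7.58% of all genes, with the chloride exchanger gene Slc26a3 at 0.99 ± 0.16, Aqp8 at 0.67 ± 0.20 and Car1 at 0.66 ± 0.12.

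On probiotic against saline in colitis, 9 of 10 macrophage and monocyte markers were higher (median 0.97), beside 2.13% of all genes, with Adgre1 at 0.97 ± 0.16 and C1qb at 1.29 ± 0.22. Higher too were 3 of 6 fibroblast, 2 of 6 plasma cell, 2 of 8 endothelial, 1 of 6 dendritic cell and 1 of 8 T cell markers. Of the B cell and follicle markers 0 of 9 were called, and of the neutrophil markers 0 of 8. Of 10 epithelial markers 1 was lower, Car1 (-0.48 ± 0.12). The macrophage mean was 8.09 to 9.18 in colitis saline, 8.99 to 9.76 in colitis probiotic and 8.09 to 8.55 in cyclosporine mice. In cyclosporine against probiotic, 9 of 9 B cell and follicle markers and 9 of 10 macrophage markers were lower, beside 12% of all genes. So were 7 of 8 neutrophil and 7 of 8 T cell markers. The part of these cell markers in the family results was not tested.

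**Figure D5:**
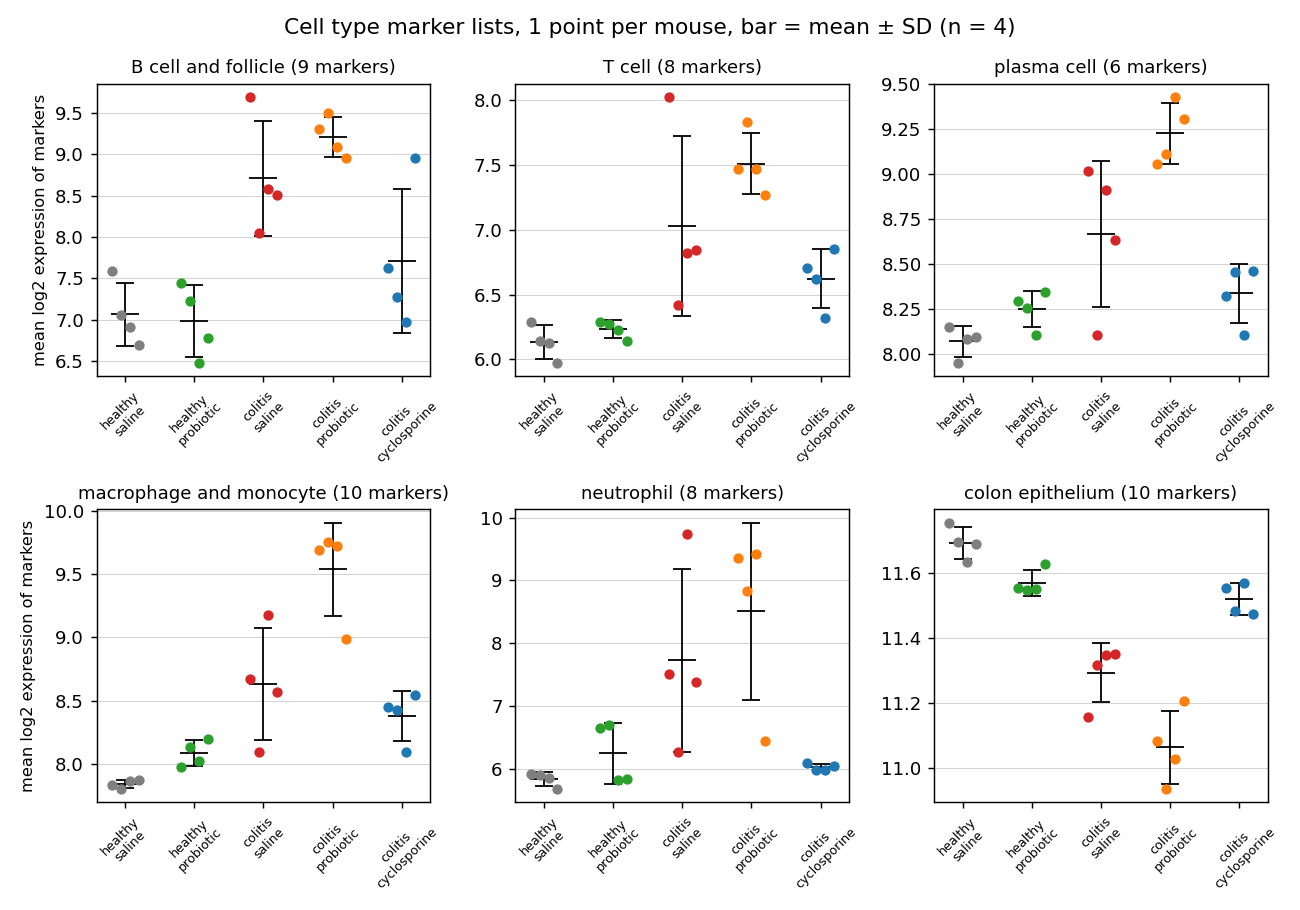
The mean log2 expression of the tested markers of 6 cell types is shown with 1 point per mouse and the mean ± SD of each group of 4 as bars. B cell and follicle means of colitis saline and probiotic mice (8.05 to 9.69) lie above all healthy mice. Macrophage means are highest on probiotic (8.99 to 9.76), and the neutrophil mean of probiotic mouse 8 is 6.44.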

How the data were processed

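Total RNA from the middle colon was biotin-labelled and hybridised to Affymetrix arrays, per the labels' protocols. The authors deposited log2 expression values made with robust multi-array averaging (RMA), per the submitters' processing notes, and the RMA software version is not given in the sources used here. RMA pulls arrays to a common distribution, so a shift shared by all genes would not be seen. Of 41801 probe sets 29195 had values, 22360 of them with 1 gene symbol in the platform annotation, giving 21423 genes by the brightest probe set. Genes were tested where the value exceeded 5.30, the 25th percentile, on at least 4 arrays (16739 genes). One group-means model in limma 3.58.1 (R 4.3.3) on all 20 arrays, tested on simulated data, gave 8 contrasts, with 15 residual and 4.03 prior degrees of freedom. P-values were Benjamini-Hochberg adjusted over all 16739 genes, and calls were adjusted p under 0.05. The 4 arrays of a group are biological replicates, per the labels. Contrasts share arrays, colitis saline and healthy saline above all, so their values are set side by side and not compared as independent. Members and lists were chosen with earlier results of these data known. All members were named, and genes outside the family by the 4 smallest p-values of their list. Depth is not defined for arrays.

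Alternatives were no filter, a stricter filter, quantile normalization again, median centring, eBayes with trend and robust options, array weights, the mean of probe sets, the animal number as a replicate block, fitting the compared groups alone, leaving out the 3 arrays set apart, and leaving out each mouse.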

Additional observations from a re-analysis of the deposited data

Results flagged for a closer look

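In 9 of 185 groups of 4 mice of the 37 tested members, the highest or lowest mouse stood far from the other 3 by Dixon's 95% criterion, and chance gives about 1 in 20 groups.

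Colitis probiotic mouse 8 accounts for 4 of them. It was low for Fas (8.294 against 8.907 to 8.959 in the other 3 mice), Ltbr (8.779 against 8.992 to 9.029), Tnfrsf18 (6.908 against 7.128 to 7.165) and Tnfrsf1b (8.375 against 9.559 to 9.654). Its neutrophil marker mean was 6.44 against 8.83 to 9.42 in the others, and its macrophage and monocyte mean 8.99 against 9.69 to 9.76.

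Colitis probiotic mouse 5 was low for Tnfrsf13c, the BAFF receptor (8.594 against 8.723 to 8.736). Colitis saline mouse 5 was high for Lta (6.661 against 5.933 to 6.026) and mouse 10 of that group high for Tnfsf10 (8.23 against 7.306 to 7.416). Among cyclosporine mice, mouse 4 was low for Tnfrsf19 (6.483 against 6.858 to 6.934) and mouse 10 high for Tnfrsf1b (8.469 against 7.986 to 8.066).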

How the results depend on the processing

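No member call changed sign in any alternative run, and 12 of the 19 calls of colitis saline against healthy saline held in all of them (Cd40, Fas, Ltb, Tnf, Tnfrsf10b, Tnfrsf11b, Tnfrsf13b, Tnfrsf14, Tnfrsf19, Tnfrsf1b, Tnfrsf23 and Tnfrsf8). So did 20 of 27 for colitis against healthy on probiotic, 13 of 23 for cyclosporine against probiotic, 2 of 7 for cyclosporine against saline in colitis, 0 of 4 for probiotic against saline in colitis and 0 of 3 for cyclosporine against healthy saline. The count for probiotic against saline in colitis was 4, and it was 2 with no filter, 11 with array weights, 7 without the 3 arrays set apart and 0 with the compared groups alone, and 0 to 13 with single mice left out. For cyclosporine against saline it was 7, and 14 without the 3 arrays set apart, and 3 to 12 with single mice left out. Cyclosporine against healthy saline had 3, and 1 to 3 with single mice left out. For colitis against healthy the settings gave 15 to 22 on saline and 20 to 29 on probiotic. Without the 3 arrays set apart, the other counts were 22 and 29 for these, 4 for cyclosporine against healthy saline and 25 for cyclosporine against probiotic. That setting leaves out the colitis saline and colitis probiotic mice lowest for neutrophil and macrophage markers. The cause of these moves was not tested.

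Animal numbers recur across groups. Deviations of same-numbered mice in different groups correlated at -0.185 to 0.433 over 20 pairs (median 0.0218). Those of different numbers correlated at -0.454 to 0.507 over 140 pairs (median -0.00973). Correlations were above 0.1 in 5 of the 20 and in 23 of the 140 pairs. Whether same-numbered mice share more than a number, such as a cage, was not tested. With the number as a replicate block, the counts were 1 for probiotic against saline in colitis and 0 for cyclosporine against healthy saline. They were 15 for cyclosporine against probiotic (23 without it), 16 for colitis saline against healthy saline and 5 for cyclosporine against saline. Numbers 2, 3, 8 and 9 each occur in only 1 group, so in that fit those mice add nothing to the contrasts. It also has fewer residual degrees of freedom than the main fit. Calls lost there cannot be assigned to shared numbers or to fewer usable mice. Quantile normalization again and median centring moved the median of all genes by at most 0.0211. With 4 mice per group small changes, above all near background, may go undetected.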
